A study of Mus musculus with 8 samples.

Results

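The ATP-binding cassette (ABC) proteins and the organic anion transporting polypeptides (encoded by Slco genes) carry lipids, sterols, bile acids, conjugates, drugs and metals across membranes. In the count table, 60 of 49585 genes were protein-coding genes of these families, 46 ABC genes and 14 Slco genes. They were chosen by symbol (Abca to Abcg, or Slco, followed by a digit) in GENCODE M21, without Abcb11, Abcc2, Abcd2 and Abcd3, and the rule used no measured value. They comprised 16 Abca, 9 Abcb, 9 Abcc, 2 Abcd, 1 Abce, 3 Abcf and 6 Abcg genes besides the Slco genes. All 60 are called transporter genes below, although the products of the Abce and Abcf genes are not transporters.

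Bulk RNA of 8 male mouse livers was sequenced after 3 months on a high-fat, choline-deficient diet begun at day 21 of age, in 3 LP+/+, 2 LPfl/+ and 3 LP245/+ mice. LP245/+ livers (labelled Alb-CreTG, Trp53wm-R245W/+) switch a wild-type Trp53 allele to p53R245W and LPfl/+ livers (Alb-CreTG, Trp53fl/+) delete an allele, both through Cre driven by the albumin promoter, so that other cells of the liver keep the unrecombined alleles. By the labels the LP+/+ livers were Alb-Cre0, replicates 1 and 2 Trp53fl/+ and replicate 3 Trp53wm-R245W/+, whereas the study's results describe LP+/+ mice as carriers of Alb-Cre. All 8 mice thus carried an engineered Trp53 allele next to a wild-type allele, all ate the same diet, no chow-fed liver was analysed here, and the strain is not given in the sources used here. Each library was taken as a separate mouse.

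Transport by these families is organised by the sides of the hepatocyte. Slco uptake carriers and the export pumps Abcc3 and Abcc4 lie on the membrane that faces the blood, while Abcb4, Abcg2, Abcg5 and Abcg8 lie on the canalicular membrane and move phospholipid, drugs and sterols into bile. Abcd and several Abcb proteins serve peroxisomes, lysosomes and mitochondria, and the Abce and Abcf proteins have no membrane domain and act on ribosomes. In a liver loaded with fat, these genes are of interest because they govern the exit of sterols and phospholipids and the handling of bile acids and drugs.

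The upstream sequences of the genes that the results turn on are printed first, from RefSeq entries of build GRCm38.p6, 5′ to 3′ along the strand of the gene. Of the 60 genes, 47 had a promoter entry, with 57 windows for alternative starts. Slco1b2 is shown as the most abundant of the genes (chr6:141629268-141629517, plus strand) and its capitals mark the HNF1 motif GTTAAT, which lies 66 to 61 bases before the start. Slco1a1 (chr6:141946963-141947212, minus strand) and Abcb1b (chr5:8797897-8798146, plus strand) are shown as the tested genes with a decamer of the p53 response element in the 250 bases before the start, marked in capitals, and because their counts varied widely between livers.
Slco1b2: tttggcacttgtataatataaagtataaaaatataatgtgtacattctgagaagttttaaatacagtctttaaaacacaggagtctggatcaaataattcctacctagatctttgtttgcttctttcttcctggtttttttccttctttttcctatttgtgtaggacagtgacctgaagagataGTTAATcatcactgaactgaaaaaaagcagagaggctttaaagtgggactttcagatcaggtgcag
Slco1a1: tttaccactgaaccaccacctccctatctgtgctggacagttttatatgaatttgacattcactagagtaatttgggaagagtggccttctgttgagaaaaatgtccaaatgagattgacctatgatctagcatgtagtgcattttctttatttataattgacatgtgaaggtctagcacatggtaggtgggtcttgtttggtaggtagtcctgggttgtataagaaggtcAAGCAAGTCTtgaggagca
Abcb1b: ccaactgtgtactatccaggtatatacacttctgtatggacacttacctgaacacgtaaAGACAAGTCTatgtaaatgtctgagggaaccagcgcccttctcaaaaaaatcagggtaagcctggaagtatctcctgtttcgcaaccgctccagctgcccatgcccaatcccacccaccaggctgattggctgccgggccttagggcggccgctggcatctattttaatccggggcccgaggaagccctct

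The decamer lies 19 to 10 bases before the start of Slco1a1 and 191 to 182 bases before that of Abcb1b. Searched on both strands, it stood in 5 of the 57 windows (8.77%; Abca12, Abca13, Abcb1b, Slco1a1 and Slco4c1) against 7.13% of all 32851 RefSeq windows of that length. The HNF1 motif stood in 1 of the 57 windows (1.75%), that of Slco1b2, against 6.43% of all windows. A match of these letters is a description and no evidence of binding.

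Abcg5 and Abcg8, whose products form the pump that sends sterols into bile, face each other on chromosome 17. The start of Abcg5 at position 84683011 on the minus strand and a start of Abcg8 at position 84683121 on the plus strand, 1 of 2 in RefSeq, leave an interval of 109 bases (chr17:84683012-84683120, plus strand), shown because both genes share it. Capitals mark 2 matches of the GATA motif (GATAA, here on the opposite strand as TTATC), which stood in 11 of the 57 windows (19.3%) and in 22.6% of all windows.
Abcg5-Abcg8 interval: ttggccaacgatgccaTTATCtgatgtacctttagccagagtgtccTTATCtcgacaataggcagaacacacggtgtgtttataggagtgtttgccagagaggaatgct

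The libraries held between 26304526 and 31370714 counts. Trp53 RNA ranged from 215 to 269 counts in LP+/+, 125 to 176 in LPfl/+ and 190 to 306 in LP245/+ livers, and counts do not tell the R245W transcript from the wild type. Cdkn1a, a p53 target, ranged from 144 to 195, 74 to 99 and 14 to 27 counts. Hepatocyte markers summed to between 2741669 and 3987952 normalized read counts, against 108 to 210 for cholangiocyte and 7632 to 11997 for macrophage markers. The library numbers form a first series (the LP245/+ livers and LP+/+ replicates 2 and 3) and a second (LP+/+ replicate 1 and both LPfl/+ livers), and a value given as within a series compares livers of 1 series. Every value within the second series thus rests on LP+/+ replicate 1 alone, and the series cannot be told apart from that mouse. LP245/+ and LPfl/+ livers never share a series, so between them genotype and series cannot be told apart.

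The transporter genes covered a wide range of levels, from none detected to some of the abundant messages of the liver. Of the 60 genes, 20 had at least 1000 counts in every liver, 21 had a lowest count of at least 10 but below 1000, and 19 fell under 10 counts in at least 1 liver. edgeR's filter on low counts kept 42 genes for testing. The remaining 18 had at most 10 counts in any liver, and 12 of these, Abca12, Abca15, Abca16, Abca17, Abcb5, Abcc8, Abcg4, Slco1a5, Slco4c1, Slco5a1, Slco6c1 and Slco6d1, stayed at or under 3 counts in every liver, the floor taken for detection. Slco6d1 alone had 0 counts in every liver, which at these depths allows a share of up to between 9.56e-06% and 1.14e-05% of a library, counting error only.

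Levels between genes were compared as normalized read counts per kb of exon, averaged over the 8 livers. Slco1b2, an uptake carrier of bile acids and drugs found mainly in hepatocytes, had 9708 per kb, 36.5% of the level summed over the 60 genes. Slco1a1, an uptake carrier of organic anions and steroid conjugates, followed with 2875 per kb and Abca6, a member of the ABCA family with a less defined lipid role, with 2479 per kb. The levels of Slco1a1 and Abca6 overlapped across livers, from 825 to 5094 per kb for Slco1a1 and from 2046 to 2743 for Abca6, whereas the lowest liver for Slco1b2, at 8284 per kb, was above the highest liver of every other gene.

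Behind these came a group with close levels, in which neighbours did not separate beyond the spread of the livers. Abcb4, the phosphatidylcholine pump of the canaliculus, stood at 1086 per kb and Abca1, which hands cholesterol to apolipoprotein, at 1033 per kb. Abcc3, a pump for glucuronides and bile acids into blood, stood at 865 per kb, Abca8a at 835, Abcg5 at 810, the uptake carrier Slco2b1 at 781, Abcc6 at 718, Abcg8 at 650 and Abce1, which recycles ribosomes, at 527 per kb. The first 5 genes held 64.6% and the first 10 held 79.7% of the summed level. Counting length by the longest annotated transcript in place of all exons left the same 12 genes at the top but put Abcb4 at 2498 per kb, beside Abca6 at 2553 and above Abca1 at 1044, so that the place of Abcb4 in the close group depends on the length used.

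Other known liver transporters were at lower levels per kb. Abcg2, the breast cancer resistance pump, stood at 439 per kb, Slco1a4 at 232, the prostaglandin carrier Slco2a1 at 79.7 and the sterol pump Abcg1 at 51.3. Abcd4, a lysosomal protein of vitamin B12 export, stood at 29.6 per kb, Abcb1a at 19.0, Abcc4 at 18.2 and Abcb1b at 10.7. The P-glycoprotein genes Abcb1a and Abcb1b thus stood far below the neighbouring phospholipid pump gene Abcb4, although all 3 lie within chromosome 5 from 8660077 to 8959231.

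**Figure D1:**
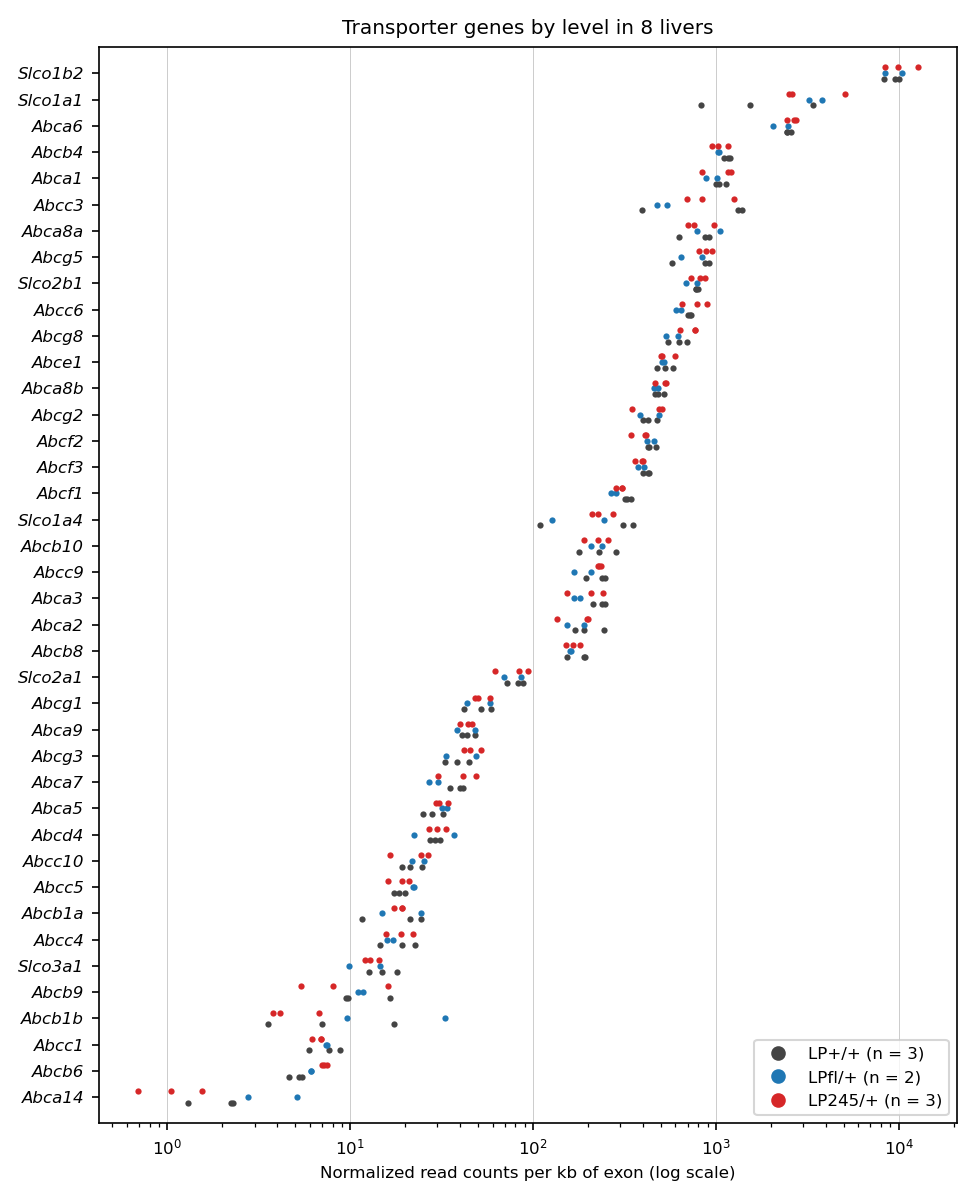
Level of 40 of the 42 tested genes in each of the 8 livers, as normalized read counts per kb of exon on a log scale, coloured by genotype and ordered by the mean over livers. Slco1b2 (8284 to 12733 per kb) stands above all others, and the points of most genes lie close together while Slco1a1, Abcc3, Slco1a4, Abcb1b and Abca14 spread.

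Genes that lie side by side often differed widely in level. With gaps of at most 150 kb between neighbours, 25 of the 60 genes fell into 8 runs. The run on chromosome 6 from 141524368 to 142322981 held Slco1c1, Slco1b2, Slco1a4, Slco1a1, Slco1a6 and Slco1a5 and ranged from 0.136 per kb for Slco1a5 to 9708 for Slco1b2. On chromosome 11, from 109932190 to 110337716, Abca8b, Abca8a, Abca9, Abca6 and Abca5 ranged from 30.7 per kb for Abca5 to 2479 for Abca6. The opposed pair Abcg5 and Abcg8 differed least, at 810 and 650 per kb.

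Most of the genes varied little between livers. The ratio of the highest to the lowest liver in normalized read counts had a median of 1.53 over the 42 tested transporter genes and of 1.62 over all 16496 genes tested, and it was under 2 for 35 of the 42. It was lowest for Abca8b, at 1.15, from 3416 to 3934 normalized read counts. It reached at least 3 for 6 genes, Abcb1b (9.33), Abca14 (7.44), Slco1a1 (6.18), Abcc3 (3.53), Slco1a4 (3.23) and Abcb9 (3.08), which transports peptides into lysosomes. In bulk tissue, fewer cells of a type and less RNA per cell cannot be told apart.

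The comparison of LP245/+ with LP+/+ asks about the mutant allele beside a wild-type allele. Since by the labels every LP+/+ liver was Alb-Cre0 and every other liver Alb-CreTG, the Cre transgene and the recombined allele cannot be told apart in either comparison with LP+/+. At the cutoff of the study, a log2 fold change of 1 or more either way with an adjusted p no larger than 0.05, 0 of 42 transporter genes passed, against 0.00606% of all genes tested. The smallest adjusted p of the 42 was 0.831 with edgeR. With an unadjusted p below 0.05 stood 1 gene, Abcb6, against 5.93% of all genes, and DESeq2 called 0 at the cutoff and 0 at that p. The log2 fold changes had a median of 0.03, against 0.00 over all genes, and ran from -0.92 for Abcb1b to 0.84 for Slco1a1, with 24 of 42 above 0, against 50.6% of all genes. The number above 0 ran from 16 to 25 over the livers left out in turn.

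The 95% intervals show how large a difference remained possible in the fit without the library series. Here and below they leave out the share of the series. With the series as a covariate, the values of Abcc3 and Slco1a4 in LPfl/+ against LP+/+ lay outside these intervals. In LP245/+ against LP+/+ the interval lay within a log2 fold change of 1 either way for 36 of the 42 genes (73.7% of all genes tested) and within 0.5 either way for 25 (43.6% of all genes). The 6 genes with a wider reach were Slco1a1, Abcc3, Abcb9, Abcb1b, Abca14 and Abcb6. For Slco1b2 the log2 fold change was 0.17 (standard error 0.17, interval -0.21 to 0.54, adjusted p = 0.895 with edgeR), with 45696 ± 4407 normalized read counts in LP+/+ and 51009 ± 10853 in LP245/+ (SD, n = 3 each). Without LP245/+ replicate 3, the liver highest for this gene, its log2 fold change was -0.02. Erythroid markers had a median log2 fold change of -0.44 in LP245/+ against LP+/+, with 1 of 4 above 0 and 1 lower at an unadjusted p below 0.05 with edgeR. Macrophage markers had a median of -0.16, with 0 of 7 above 0. Values above 0 were found for 4 of 5 sinusoidal endothelium and 4 of 5 stellate cell markers. They were found for 1 of 5 hepatocyte, 3 of 4 cholangiocyte and 2 of 4 lymphocyte markers. The sums of all marker lists overlapped between these genotypes. The part of these cells in the result was not tested.

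In LPfl/+ against LP+/+, which asks about a deleted allele together with the Cre transgene, 0 of 42 genes passed the cutoff (0% of all genes tested), the smallest adjusted p was 0.704 with edgeR, and DESeq2 also called 0. The genes with an unadjusted p below 0.05 were 3, Abcf1, Abca3 and Abca14, against 6.89% of all genes, and 2 of 59 with DESeq2, which keeps more of the low genes. The median log2 fold change was -0.04 over the 42 genes and 0.00 over all genes, and 17 of the 42 genes had a value above 0, against 49.8% of all genes. The interval lay within 1 either way for 36 genes (68.9% of all genes) and within 0.5 for 18 (36.7%). Erythroid markers summed to between 9458 and 12269 normalized read counts in LPfl/+ and between 13350 and 18544 in LP+/+ livers, without overlap, with a median log2 fold change of -0.73 and 2 of the 4 lower at an unadjusted p below 0.05. The sums of the other marker lists overlapped between these genotypes, and 0 of their genes had such a p. The log2 fold change was above 0 for 1 of 5 hepatocyte, 0 of 4 cholangiocyte, 1 of 5 sinusoidal endothelium and 1 of 4 lymphocyte markers. It was above 0 for 4 of 7 macrophage and 3 of 5 stellate cell markers. The part of these cells in the result was not tested. Both of these comparisons use the same LP+/+ livers.

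In LP245/+ against LPfl/+, 0 of 42 genes passed the cutoff (0% of all genes tested), the smallest adjusted p was 0.376 with edgeR, and DESeq2 called 0. The genes with an unadjusted p below 0.05 were 4, Abca14, Abcb1b, Abca7 and Abcg8, against 8.51% of all genes, and 5 of 59 with DESeq2. The median log2 fold change was 0.05, against 0.00 over all genes, and 30 of the 42 genes had a value above 0, against 50.8% of all genes. The number above 0 ran from 24 to 31 over the livers left out in turn, and was 27 with the series as a covariate. The interval lay within 1 either way for 36 genes (68.1% of all genes) and within 0.5 for 17 (35.9%). Sinusoidal endothelium markers summed to between 10182 and 10863 normalized read counts in LP245/+ and between 7068 and 9595 in LPfl/+ livers, and 5 of 5 had a log2 fold change above 0, none at an unadjusted p below 0.05. Values above 0 were also found for 5 of 5 hepatocyte, 4 of 4 cholangiocyte, 4 of 4 erythroid, 3 of 5 stellate cell and 3 of 4 lymphocyte markers, of which 1 stellate cell marker was higher at an unadjusted p below 0.05. It was above 0 for 1 of 7 macrophage markers, with a median of -0.34 and 1 lower at an unadjusted p below 0.05. The sums overlapped for hepatocyte markers, at 2783478 to 3259624 in LP245/+ and 2741669 to 2938168 in LPfl/+, and for macrophage markers, at 7632 to 9300 and 8604 to 11997. The part of these cells in the result was not tested.

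**Figure D2:**
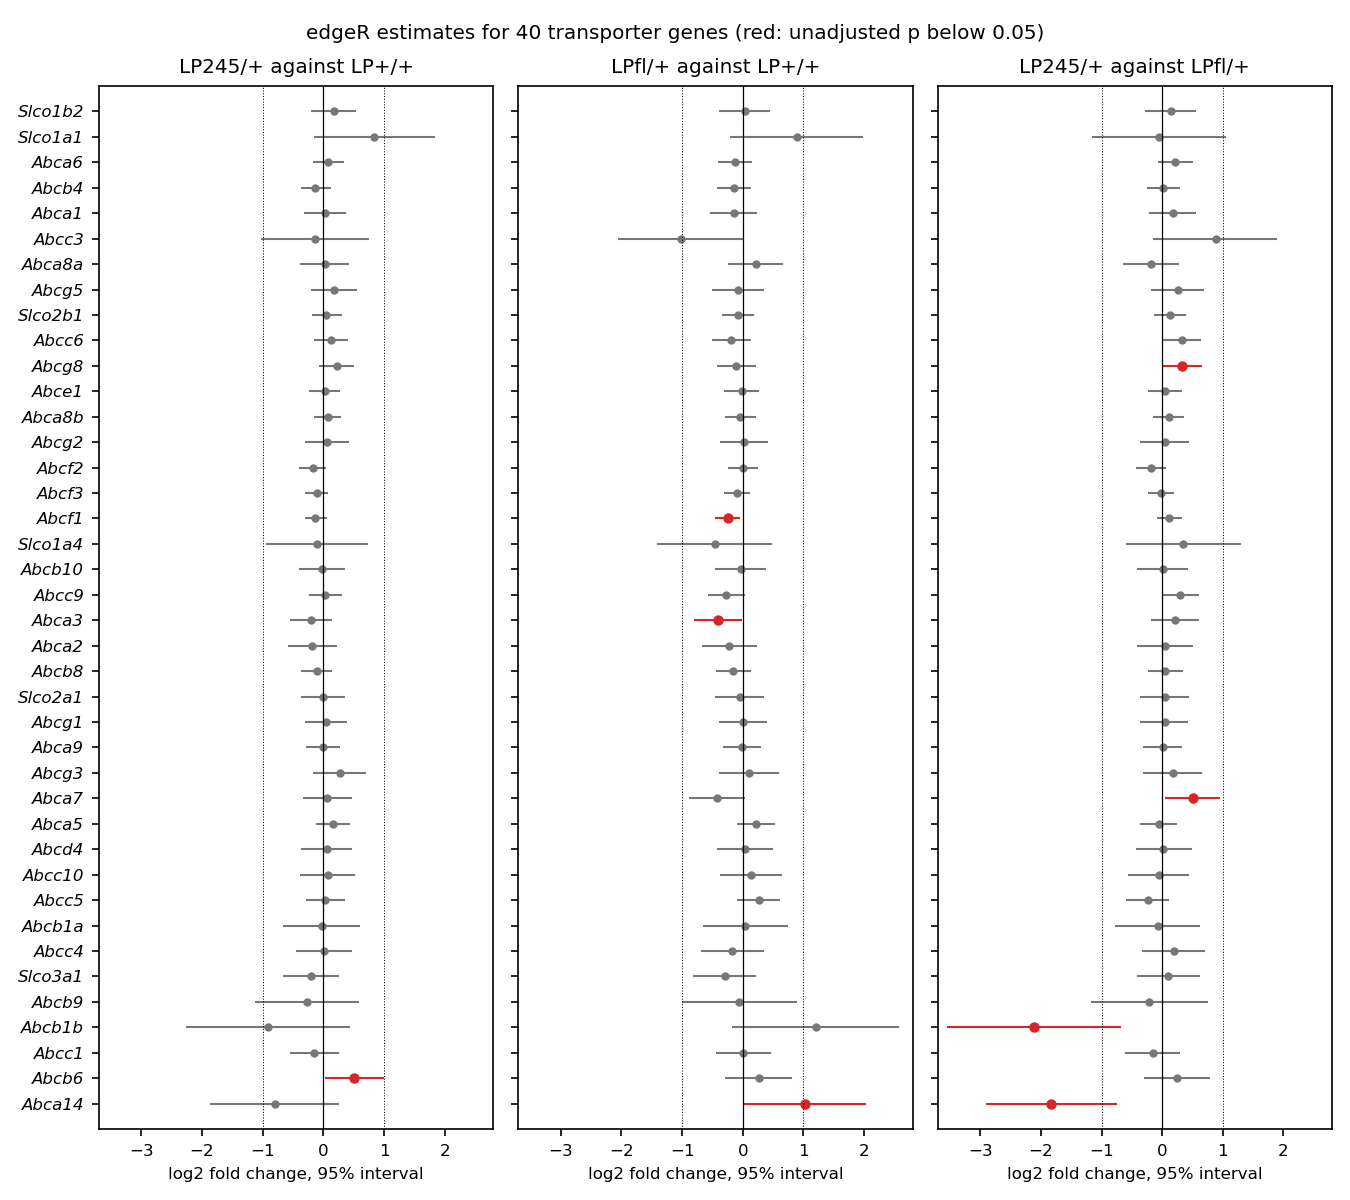
Log2 fold change with its 95% interval from edgeR for 40 of the 42 tested genes, ordered by level, in the 3 comparisons of genotypes; dotted lines mark 1 either way and red marks an unadjusted p below 0.05. Most intervals lie between the dotted lines in each comparison, and the widest belong to Abcb1b, Abca14, Slco1a1, Abcc3, Slco1a4 and Abcb9.

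Among the uptake carriers, the abundant Slco1b2 had a ratio of the highest to the lowest liver of 1.54, near the median of 1.53 over the tested transporter genes. Its tested neighbours Slco1a1 and Slco1a4 varied more. Slco1a1 (chromosome 6, from 141907282 to 141946962) had 17861, 4351 and 8054 normalized read counts for LP+/+, 20026 and 17132 for LPfl/+ and 13246, 13797 and 26875 for LP245/+ livers. LP+/+ replicates 2 and 3 were below every other liver and LP+/+ replicate 1 was among the high ones, so that LP+/+ overlapped both other genotypes. The log2 fold change was 0.84 for LP245/+ (standard error 0.45, interval -0.16 to 1.84, adjusted p = 0.831) and 0.89 for LPfl/+ (standard error 0.49, interval -0.21 to 1.99, adjusted p = 0.757) against LP+/+ with edgeR. Over the livers left out in turn, the value for LP245/+ ran from 0.43 without LP245/+ replicate 3 to 1.54 without LP+/+ replicate 1, at 0.47 without LP+/+ replicate 2. That for LPfl/+ ran from 0.52 without LP+/+ replicate 2 to 1.59 without LP+/+ replicate 1.

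The LP+/+ livers of the separate series differed in this gene, with a log2 ratio of the first to the second of -1.53. Within a series, the log2 ratio to LP+/+ was 1.53 for LP245/+ and 0.06 for LPfl/+, the latter against LP+/+ replicate 1 alone. The share of the series in these differences was not tested apart from the genotype.

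Slco1a4, an uptake carrier of organic anions with a close sequence, had 701, 1989 and 2263 normalized read counts for LP+/+, 1572 and 811 for LPfl/+ and 1352, 1444 and 1762 for LP245/+ livers. Here LP+/+ replicate 1 was the lowest liver and replicates 2 and 3 the highest, the reverse of Slco1a1. Against LP+/+ the log2 fold change was -0.11 for LP245/+ (standard error 0.38, interval -0.95 to 0.73, adjusted p = 0.977) and -0.46 for LPfl/+ (standard error 0.43, interval -1.42 to 0.49, adjusted p = 0.847) with edgeR. The log2 ratio between the LP+/+ livers of the first and the second series was 1.60, and within a series the ratio to LP+/+ was -0.49 for LP245/+ and 0.76 for LPfl/+, the latter with a sign opposite to the pooled value. Of the 76-base windows of its longest transcript, 1.71% also occur in Slco1a5, and 1.49% of those of Slco1a1 occur in Slco1a4.

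Of the other uptake genes, Slco2b1 was even across livers, with 4665 ± 84.0 in LP+/+ (SD, n = 3), 4394 ± 451 in LPfl/+ (SD, n = 2) and 4806 ± 431 normalized read counts in LP245/+ (SD, n = 3), although 9.21% of its exon bases lie under genes of the opposite strand. Slco2a1 had 1096 ± 114, 1052 ± 160 and 1083 ± 225 in the same order. Over the 6 tested uptake genes the median log2 fold change was 0.02 in LP245/+ and -0.06 in LPfl/+ against LP+/+, and none had an unadjusted p below 0.05 in either with edgeR. Slco4a1, which edgeR's filter left out and which is named after its values were seen, had 8, 5 and 9 counts for LP+/+, 9 and 7 for LPfl/+ and 3, 3 and 3 for LP245/+ livers, at the floor in the last.

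Among the pumps for conjugates, Abcc3 (chromosome 11, from 94343295 to 94392997) stood apart by its variation. It had 2246, 7542 and 7927 normalized read counts for LP+/+, 3072 and 2719 for LPfl/+ and 4764, 7165 and 3973 for LP245/+ livers. LP+/+ replicate 1 and both LPfl/+ livers, the second series, were lower than all 5 livers of the first series. The log2 fold change was -1.02 for LPfl/+ (standard error 0.46, interval -2.05 to 0.01, adjusted p = 0.727) and -0.14 for LP245/+ (standard error 0.40, interval -1.03 to 0.75, adjusted p = 0.971) against LP+/+ with edgeR.

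For Abcc3 the call changed with a single library and the direction with the series. Without LP+/+ replicate 1 the log2 fold change in LPfl/+ was -1.41 with an adjusted p of 0.0424 by edgeR, past the cutoff. Within the second series, however, the log2 ratio of LPfl/+ to LP+/+ replicate 1, its only LP+/+ liver, was 0.37. With the series as a covariate the fitted value was 0.37. In LP245/+ against LPfl/+ the log2 fold change was 0.88 (standard error 0.46, interval -0.15 to 1.90, adjusted p = 0.64), and -0.91 with the series as a covariate, a value that rests on the LP+/+ livers as the link between the series.

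The remaining tested pumps for conjugates were steady. Abcc6, whose loss causes ectopic mineralization, had 4106 ± 71.5 in LP+/+ (SD, n = 3), 3587 ± 157 in LPfl/+ (SD, n = 2) and 4461 ± 700 normalized read counts in LP245/+ (SD, n = 3), and every LPfl/+ liver was below every other liver. The log2 fold change of Abcc6 in LP245/+ against LPfl/+ was 0.32 (standard error 0.14, interval 0.00 to 0.64, adjusted p = 0.583 with edgeR). Abcc4, a pump for nucleotides and bile acids, had 120 ± 25.9, 106 ± 6.69 and 120 ± 19.8 in the order of LP+/+, LPfl/+ and LP245/+.

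**Figure D3:**
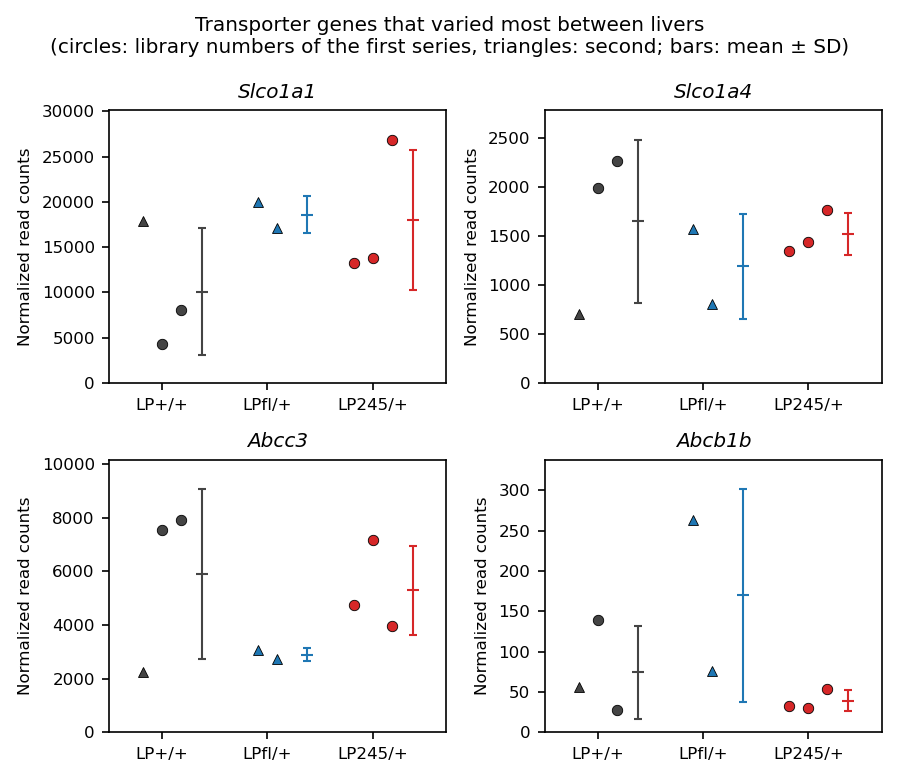
Normalized read counts of Slco1a1, Slco1a4, Abcc3 and Abcb1b in each liver by genotype, with mean ± SD beside the points and with the series of library numbers as the symbol. In LP+/+ the triangle (replicate 1) is the highest point for Slco1a1 (17861) and the lowest for Slco1a4 (701) and Abcc3 (2246), and LPfl/+ replicate 1 (263) is the highest liver for Abcb1b.

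Among the drug and phospholipid pumps, Abcb1b (chromosome 5, from 8798147 to 8866315) varied most of all tested transporter genes. It had 56.0, 139 and 28.2 normalized read counts for LP+/+, 263 and 76.7 for LPfl/+ and 33.1, 30.3 and 54.0 for LP245/+ livers. Both LPfl/+ livers were above the LP245/+ livers, and LP+/+ overlapped both genotypes. In LP245/+ against LPfl/+ the log2 fold change was -2.12 (standard error 0.64, interval -3.55 to -0.68, adjusted p = 0.423 with edgeR).

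Without LPfl/+ replicate 1 the value was -0.97, and over each liver left out in turn it ran from -2.74 to -0.97. With no filter on low counts it was -2.11 with an adjusted p of 0.0149 by edgeR, past the cutoff. Against LP+/+ the log2 fold change of Abcb1b was 1.20 for LPfl/+ (standard error 0.62, adjusted p = 0.757) and -0.92 for LP245/+ (standard error 0.61, adjusted p = 0.846), with within-series ratios of 1.60 and -1.10. Over the livers left out in turn, the first value ran from 0.04 without LPfl/+ replicate 1 to 2.01 without LP+/+ replicate 2, and the second from -1.31 without LP+/+ replicate 3 to -0.10 without LP+/+ replicate 2. Its paralog Abcb1a shares 12.2% of the 76-base windows of the longest Abcb1b transcript, so counts may be split between them, and Abcb1a had 105 ± 36.6 in LP+/+ (SD, n = 3), 107 ± 36.0 in LPfl/+ (SD, n = 2) and 102 ± 6.09 normalized read counts in LP245/+ (SD, n = 3).

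The abundant canalicular pumps varied little. Abcb4, which delivers phosphatidylcholine to bile, had 10834 ± 425 in LP+/+ (SD, n = 3), 9725 ± 97.7 in LPfl/+ (SD, n = 2) and 9850 ± 972 normalized read counts in LP245/+ (SD, n = 3). Abcg2 had 3531 ± 306, 3548 ± 614 and 3653 ± 712 in the same order. The ratio of the highest to the lowest liver was 1.25 for Abcb4 and 1.46 for Abcg2.

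No sterol pump passed the cutoff, and Abcg8 was the 1 with an unadjusted p below 0.05 in a comparison of genotypes. Abcg8 (chromosome 17, from 84676302 to 84700333) had 2059, 2364 and 2619 normalized read counts for LP+/+, 2313 and 2003 for LPfl/+ and 2870, 2877 and 2378 for LP245/+ livers. The LP245/+ livers were above both LPfl/+ livers and overlapped LP+/+. Against LPfl/+ the log2 fold change in LP245/+ was 0.33 (standard error 0.14, interval 0.01 to 0.65, adjusted p = 0.571) and 0.22 against LP+/+ (standard error 0.13, interval -0.07 to 0.50, adjusted p = 0.837) with edgeR. Within a series its log2 ratio to LP+/+ was 0.12 for LP245/+ and 0.07 for LPfl/+.

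Its partner Abcg5, across the interval printed above, had 1563, 2362 and 2470 normalized read counts for LP+/+, 2262 and 1748 for LPfl/+ and 2201, 2565 and 2402 for LP245/+ livers, and the genotypes overlapped. Abca1 had 10963 ± 740 in LP+/+ (SD, n = 3), 9811 ± 960 in LPfl/+ (SD, n = 2) and 11054 ± 2103 in LP245/+ (SD, n = 3). Abcg1, a sterol pump also abundant in macrophages, had 372 ± 60.5, 370 ± 75.3 and 379 ± 38.7 in the same order, while the macrophage marker sum ran from 8854 to 10594, from 8604 to 11997 and from 7632 to 9300. Over the 4 tested sterol pumps the median log2 fold change was 0.11 in LP245/+ and -0.10 in LPfl/+ against LP+/+.

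Among transporters of organelles, Abcb6, a porphyrin transporter, was the 1 transporter gene that met the ascending slope criterion of the study over the genotypes. It had 29.0, 27.9 and 24.5 normalized read counts for LP+/+, 32.4 and 32.3 for LPfl/+ and 37.2, 38.4 and 39.7 for LP245/+ livers, and no genotype overlapped another. The log2 fold change in LP245/+ against LP+/+ was 0.51 (standard error 0.22, interval 0.02 to 1, adjusted p = 0.831) with edgeR, and 0.56 as a ratio within the first series.

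Over genotypes coded 1, 2 and 3, the slope of Abcb6 was 5.67 normalized read counts per step with an R² of 0.93, and the edgeR trend was 0.26 per step (standard error 0.11, adjusted p = 0.914). Ascending genes with a slope above 1 and an R² above 0.6 were 1 of the 60 transporter genes and 0.629% of all genes of the table, and descending genes with a slope below -1 were 0 of 60 and 0.506%. Counts on group averages, the form used by the study, may differ and are not given here. In the trend test 0 of 42 transporter genes passed an adjusted p of 0.05, against 0.0121% of all genes, and Abcb6 was the 1 gene at an unadjusted p below 0.05, against 5.1%. The count of Abcb6 is uncertain, because 64.4% of the 76-base windows of its longest transcript also occur in Gm29253, which covers 55.2% of its exon bases on the same strand and had between 0 and 2 counts.

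Abcd4 had 233 ± 14.5 in LP+/+ (SD, n = 3), 238 ± 83.5 in LPfl/+ (SD, n = 2) and 241 ± 24.4 normalized read counts in LP245/+ (SD, n = 3). The mitochondrial transporter gene Abcb10 had 992 ± 225, 963 ± 96.0 and 966 ± 142 in the same order, with 10.3% of its exon bases under a gene of the opposite strand. Over the 7 tested genes of organelles the median log2 fold change was 0.04 in LP245/+ and -0.03 in LPfl/+ against LP+/+.

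In the ABCA family, Abca14 (chromosome 7, from 120203961 to 120325352), known mainly from testis, was close to the floor. It had 14, 8 and 14 counts for LP+/+, 16 and 30 for LPfl/+ and 6, 9 and 4 for LP245/+ livers, so that both LPfl/+ livers were above all others and LP245/+ overlapped LP+/+. Against LPfl/+ the log2 fold change in LP245/+ was -1.83 (standard error 0.49, interval -2.91 to -0.74, adjusted p = 0.376), 1.02 in LPfl/+ against LP+/+ (standard error 0.45, adjusted p = 0.724) and -0.80 in LP245/+ against LP+/+ (standard error 0.48, adjusted p = 0.837) with edgeR. Without LPfl/+ replicate 2 the value against LPfl/+ was -1.30, and over the livers left out in turn it ran from -2.20 to -1.30.

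Abca7, linked to phospholipid export and phagocytosis, had 279, 270 and 236 normalized read counts for LP+/+, 204 and 182 for LPfl/+ and 279, 331 and 204 for LP245/+ livers. The LPfl/+ livers were the lowest, with LPfl/+ replicate 1 at the level of LP245/+ replicate 3. The log2 fold change was 0.50 in LP245/+ against LPfl/+ (standard error 0.21, interval 0.04 to 0.96, adjusted p = 0.551) and -0.43 in LPfl/+ against LP+/+ (standard error 0.20, interval -0.89 to 0.03, adjusted p = 0.739) with edgeR.

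Abca3, a lipid transporter of lamellar bodies, had 2223, 2308 and 1994 normalized read counts for LP+/+, 1697 and 1559 for LPfl/+ and 1951, 2258 and 1429 for LP245/+ livers. LPfl/+ was below LP+/+ without overlap, and LP245/+ spanned both. Its log2 fold change in LPfl/+ against LP+/+ was -0.41 (standard error 0.18, interval -0.80 to -0.02, adjusted p = 0.721 with edgeR), and the within-series ratio was -0.45. Genes of the opposite strand cover 9.75% of its exon bases, and the strand that was counted is not given in the sources used here.

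The chromosome 11 run of ABCA genes showed no such split. Abca6 had 13424 ± 389 in LP+/+ (SD, n = 3), 12194 ± 1623 in LPfl/+ (SD, n = 2) and 14128 ± 809 normalized read counts in LP245/+ (SD, n = 3), and Abca8a had 5026 ± 956, 5783 ± 1165 and 5086 ± 897 in the same order. Over the 9 tested ABCA genes outside the sterol pumps, the median log2 fold change was 0.03 in LP245/+ and -0.04 in LPfl/+ against LP+/+. In the channel subunit gene Abcc9, found in smooth muscle and other vessel cells, the means were 1903 ± 242, 1561 ± 234 and 1924 ± 44.4, and the log2 fold change in LP245/+ against LPfl/+ was 0.30 (standard error 0.14, interval 0.00 to 0.61, adjusted p = 0.583 with edgeR).

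The ABC genes that act on ribosomes gave even counts, with a coefficient of variation over the 8 livers of 5.82% for Abcf3, 7.86% for Abce1, 8.22% for Abcf1 and 9.17% for Abcf2. Abcf1 (chromosome 17, from 35956819 to 35969761), a factor of translation initiation, had 1444, 1511 and 1398 normalized read counts for LP+/+, 1177 and 1251 for LPfl/+ and 1256, 1344 and 1356 for LP245/+ livers. LP+/+ was above both other genotypes without overlap. The log2 fold change was -0.25 for LPfl/+ (standard error 0.09, interval -0.46 to -0.04, adjusted p = 0.704) and -0.13 for LP245/+ (standard error 0.08, interval -0.31 to 0.06, adjusted p = 0.846) against LP+/+ with edgeR, and the within-series ratios were -0.25 and -0.14.

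In LP245/+ against LP+/+, 4 of the 42 genes had groups that did not overlap, against 11.8% of all genes tested. Abcb6 was higher, and Abcf1, Abcf2 and Abcf3, whose products are not transporters, were lower. For Abcf2 the log2 fold change was -0.17 (standard error 0.10, interval -0.40 to 0.05, adjusted p = 0.837) and for Abcf3 -0.11 (standard error 0.09, interval -0.30 to 0.08, adjusted p = 0.866) with edgeR. In LPfl/+ against LP+/+ the groups did not overlap for 9 of 42 genes, against 25.1% of all genes, and in LP245/+ against LPfl/+ for 13 of 42, against 25.4%. Abce1 had 3165 ± 330 in LP+/+ (SD, n = 3), 3096 ± 56.8 in LPfl/+ (SD, n = 2) and 3202 ± 314 normalized read counts in LP245/+ (SD, n = 3).

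**Figure D4:**
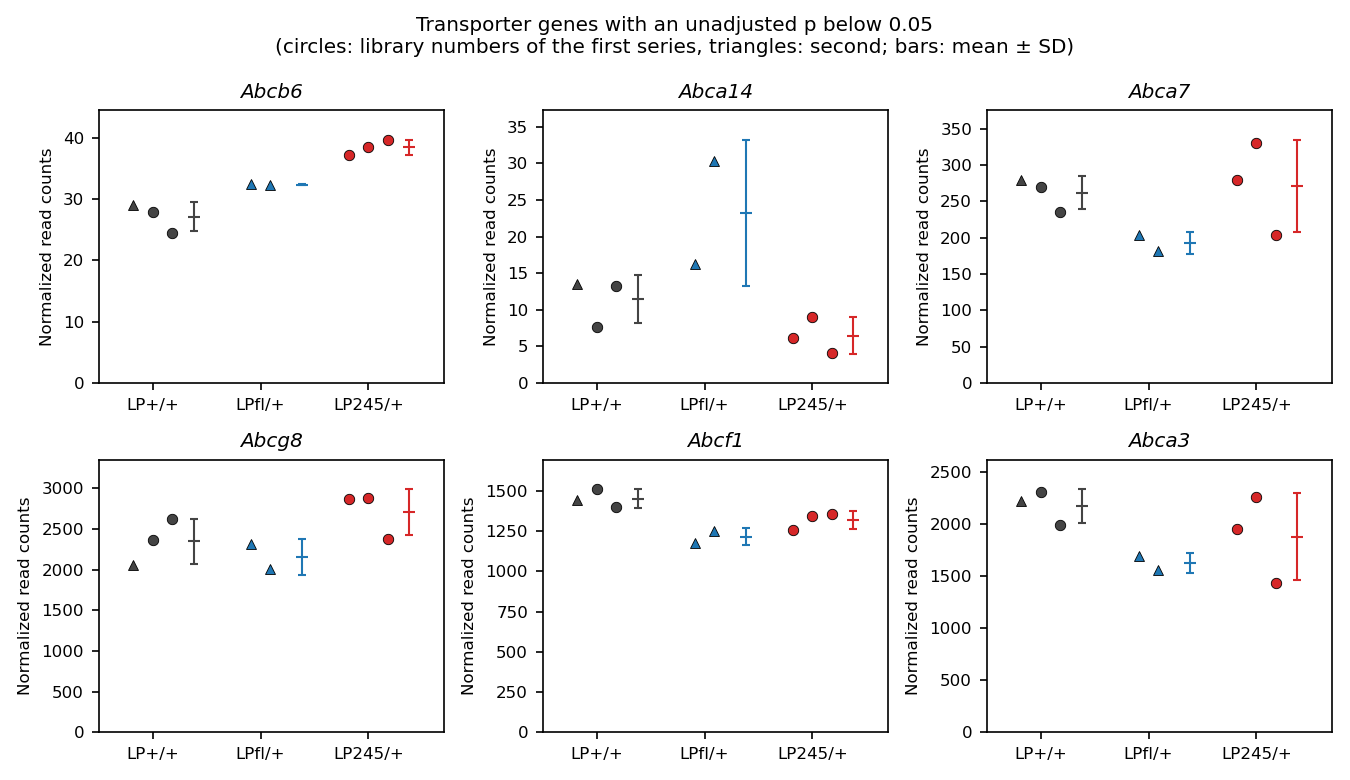
Normalized read counts in each liver for 6 of the genes with an unadjusted p below 0.05 in a comparison, with mean ± SD beside the points, y axes from 0 and the series of library numbers as the symbol. The genotypes of Abcb6 do not overlap but lie between 24.5 and 39.7, and Abca14 lies between 4.07 and 30.3, whereas Abcf1 (1177 to 1511) and Abca3 (1429 to 2308) have ample counts.

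A list of 14 genes, called regulators here, was read beside the transporter genes. Apart from Mylip, they are genes of transcription factors. None of the 14 regulators of the list passed the cutoff in any comparison with edgeR. The list was chosen with earlier results of these data known, so the share over all genes is no test of it. In LP245/+ against LPfl/+, 4 of 14 were higher and 0 lower at an unadjusted p below 0.05, where 4.07% of all genes tested were higher, and 11 of 14 had a log2 fold change above 0. These were the aryl hydrocarbon receptor gene Ahr (0.86, adjusted p = 0.428), Hnf4a (0.39, adjusted p = 0.509), Ppara (0.39, adjusted p = 0.525) and Rxra (0.31, adjusted p = 0.538). Against LP+/+, Ahr was at -0.72 in LPfl/+ (adjusted p = 0.7) and Nfe2l2, the gene of the oxidative stress factor NRF2, at -0.32 in LP245/+ (adjusted p = 0.831), and these were the single regulators at an unadjusted p below 0.05 there. For Ahr, Hnf4a and Ppara, but not Rxra, all livers of the second series, LP+/+ replicate 1 included, were below all of the first. Ahr had 1272 counts in LP+/+ replicate 1 and 1329 and 811 in LPfl/+, against 1702 to 2308 in the first series. The share of the series in these differences was not tested.

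Further transporter genes outside the symbol rule were read from a list that includes Tap1 and Tap2, ABC transporters of the endoplasmic reticulum. Of 18 listed genes 15 were tested and none passed the cutoff with edgeR. This list too was chosen with earlier results of these data known, so the share over all genes is no test of it. In LP245/+ against LPfl/+, 3 were lower at an unadjusted p below 0.05, where 4.44% of all genes tested were lower, and these were the organic solute transporter gene Slc51b (-1.63, adjusted p = 0.497), the organic anion carrier gene Slc22a7 (-0.95, adjusted p = 0.468) and the peptide transporter gene Tap1 (-0.70, adjusted p = 0.45). Slc22a7 was also lower than LP+/+ in LP245/+ at an unadjusted p below 0.05 (log2 fold change -0.86, adjusted p = 0.795), with 2405, 1099 and 1179 counts for LP+/+, 1490 and 1625 for LPfl/+ and 993, 758 and 644 for LP245/+ livers, the last below all others. For this gene LP+/+ replicate 1 and both LPfl/+ livers, the second series, were above every liver of the first series. Slc51b had low counts, at 11, 24 and 15 for LP+/+, 45 and 14 for LPfl/+ and 14, 8 and 6 for LP245/+ livers. Its genotypes overlapped, and LPfl/+ replicate 1 alone stood high.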

How the data were processed

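RNA of 8 livers was sequenced by the authors with stranded total RNA libraries and paired reads of 76 bases, aligned to GRCm38 with STAR. The authors deposited raw counts per gene, without normalization. Genes were named by GENCODE M21 (49326 of 49585 matched). Members and lists were chosen with earlier results of these data known. edgeR 4.0.16 in R 4.3.3 (quasi-likelihood F test, TMM, filterByExpr, all 8 livers) tested 16496 genes with Benjamini-Hochberg adjustment, and DESeq2 1.42.0 gave size factors for normalized read counts and an alternative test. Standard errors and 95% intervals come from the edgeR fit. Named genes were fixed hepatic transporters, the 12 highest per kb and those at an unadjusted p below 0.05, and any other gene was named after its values were seen. Shared windows were counted between GENCODE transcripts. The code was tested on simulated counts. Figures used Python 3.11.15 and matplotlib 3.10.9. Other filters, fits, a replicate block, the library series and each liver left out were tried.

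No pair of libraries agreed within sampling noise (lowest chi-square per gene 19.9). Deviations of livers with the same replicate number correlated between -0.0803 and 0.0344, so numbers were not taken as pairs. Values of a few genes are not reported here, and 2 of the tested genes are left out of the plots.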

Additional observations from a re-analysis of the deposited data

How the results depend on the processing

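With edgeR or DESeq2, no filter, a stricter filter, other scaling, only the 2 groups compared, the series as a covariate or 1 liver left out, 0 transporter genes passed the cutoff except in 2 settings, Abcc3 in LPfl/+ against LP+/+ without LP+/+ replicate 1 (1 gene, -1.41) and Abcb1b in LP245/+ against LPfl/+ with no filter (1 gene, -2.11). The counts at an unadjusted p below 0.05 were less stable. With DESeq2 or no filter they are out of 59 transporter genes, and in the other settings out of 41 to 43. The shares of all genes called in these settings are not given here, so these counts are not read against them. In LP245/+ against LP+/+ (1 gene), there were 0 with DESeq2, 3 with no filter, 0 with only the 2 groups, 2 with the series and between 0 and 2 without 1 liver, at 2 without LP+/+ replicate 1 or LP245/+ replicate 2 or 3 and at 0 without LP+/+ replicate 2, LP245/+ replicate 1 or either LPfl/+ liver. In LPfl/+ against LP+/+ (3 genes) there were 8 with no filter and between 1 and 5 without 1 liver, at 5 without LP+/+ replicate 1 and 1 without LPfl/+ replicate 1. In LP245/+ against LPfl/+ (4 genes) there were 8 with no filter, 7 with only the 2 groups and between 2 and 8 without 1 liver, at 8 without LP245/+ replicate 3 and at 2 without LP245/+ replicate 1 or 2 or either LPfl/+ liver. In the trend (1 gene) there were 0 with DESeq2, 2 with the series and between 0 and 1 without 1 liver, at 0 without LP+/+ replicate 2 or 3 or LP245/+ replicate 1 or 3. With the replicate number as a block there were 0 in LP245/+ against LP+/+, 4 in LPfl/+ against LP+/+, 5 in LP245/+ against LPfl/+ and 0 in the trend, and 0 passed the cutoff. The LPfl/+ genes above 0 numbered between 10 and 20 without 1 liver, at 10 without LPfl/+ replicate 1, and descending genes by slope between 0 and 1, at 1 without LP+/+ replicate 1 or 2, LPfl/+ replicate 1 or LP245/+ replicate 2 or 3.

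With the series as a covariate, the sign turned for Abcc3 in LPfl/+ (0.37) and for Slco1a4 in LPfl/+ (0.77) against LP+/+, and for Abcc3 in LP245/+ against LPfl/+ (-0.91). Without 1 liver, small values crossed 0 against LP+/+ for Abcc3 (-0.53 to 0.12) and Slco1a4 (-0.47 to 0.18) in LP245/+ and for Slco1b2 in LP245/+ (-0.02 to 0.29) and LPfl/+ (-0.14 to 0.16). Apart from the construction of these fits, the cause was not tested. The depth leaves genes at or under 10 counts without a usable test. With 2 or 3 livers a genotype, differences under about the width of the intervals can go undetected, and so can larger ones. Cdkn1a passed the cutoff in LP245/+ against LP+/+ (log2 fold change -2.91, adjusted p = 0.0155 with edgeR). In LP245/+ against LPfl/+ it did not, at -1.96 (standard error 0.29, adjusted p = 0.321 with edgeR).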
